A study of Mus musculus with 8 samples.

Results

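Complex I of the respiratory chain (NADH:ubiquinone oxidoreductase) is described here through the genes whose symbols begin with Ndufa, Ndufb, Ndufc, Ndufs or Ndufv, the acyl carrier Ndufab1 and the numbered assembly factors Ndufaf included. By this rule on symbols alone, 44 of the 13439 listed genes are members, of which 37 are counted as subunits and 7 as assembly factors (Ndufaf1 to Ndufaf7). The study made 8 RNA-seq libraries from mouse left ventricles, with 4 groups of 2. Floxed mice (Lin28afl/fl), littermates in which the gene for the RNA-binding protein Lin28a is intact, and mice with a heart-specific knockout of Lin28a (cKO) were either sham-operated or given transverse aortic constriction (TAC), in which a narrowed aorta raises the pressure load of the left ventricle. TAC hearts were taken on day 5; the labels give no day for the sham hearts, and no age, sex or Cre driver for any group. Whether the 2 libraries of a group came from separate animals is not stated, so p-values here measure only the spread between these samples. Lin28a transcripts were not analysed here.

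Complex I is the entry point of electrons from NADH into the respiratory chain, and heart muscle, which lives on fatty acid oxidation, is among the tissues richest in it. Its matrix arm takes electrons from NADH through a flavin and a chain of iron-sulfur clusters to ubiquinone, and its membrane arm pumps protons. The core subunits that carry out the chemistry are encoded in part in the nucleus and in part in mitochondrial DNA, accessory subunits surround them, and assembly factors help to build the enzyme without remaining in it. Ndufa4, named as a member of complex I, is now placed in cytochrome c oxidase, and Ndufa4l2 is its paralogue, known as a gene induced by low oxygen. The core subunits encoded in mitochondrial DNA and the subunits Ndufs5 and Ndufb1 were not analysed here.

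Levels are CPM, a gene's reads scaled to the library's total of reads assigned to genes. Library totals were 10315902 to 21871570 reads, and the most that a count of 0 leaves possible, 3 reads, was 0.137 to 0.291 CPM; this covers counting error only. All 44 members reached at least 1 CPM in at least 2 libraries and were tested among 13120 genes. Differences are on the log2(CPM + 1) scale ± the standard error of the limma fit, and "rose" or "fell" means a Benjamini-Hochberg adjusted p under 0.05 over all genes tested. The libraries carried cardiomyocyte markers at summed levels of 73058 to 112573 CPM. Atrial light chain Myl7 stood out in floxed sham 2, cKO sham 2 and cKO TAC 2 (133, 65.0 and 66.2 CPM). Library cKO sham 2 held the X-linked Xist at 44.3 CPM and the Y-linked Ddx3y at 0 CPM. In the other libraries Xist was at 0 to 0.173 CPM and Ddx3y at 32.3 to 63.2 CPM. Comparisons with cKO sham therefore include libraries that differ in these sex-linked genes. Sequence stretches of at least 50 bases shared with other annotated genes (GENCODE M21), on either strand, made up 10% or more of the transcripts of 7 members. These were Ndufs3, Ndufb4, Ndufb6, Ndufa13, Ndufa12, Ndufb9 and Ndufb11. Their reads could in part be split with pseudogenes or neighbouring genes. The libraries came from a stranded kit, so overlap on the opposite strand need not split reads. How far the values of these members are affected was not measured.

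Promoter stretches are shown because regulators of respiratory genes were among the genes measured here. RefSeq gave a promoter, 250 bases before to 50 after the start on GRCm38.p6, for 38 of the 44 members, 32 subunits and 6 assembly factors. Letters known as binding motifs of such regulators were searched on both strands, and each match is printed 5′ to 3′ on the gene's strand with 6 bases on each side and the match in capitals. The motif of the factor YY1, AAGATGGCG, was in 5 of 32 subunit promoters (15.6%) and in 1.49% of all 27025 promoters of this length. In each of these 5 it lay in sense orientation, starting between base 23 and base 36 after the start, inside the transcribed first bases; the letters contain ATG.
Ndufa9 (chr6:126849101-126849121, minus strand): tgggagAAGATGGCGgccgcc
Ndufc1 (chr3:51408919-51408939, minus strand): cggaacAAGATGGCGccgtcc
Ndufs4 (chr13:114388045-114388065, minus strand): tacaggAAGATGGCGgcggtc
Ndufs6 (chr13:73328435-73328455, minus strand): accggcAAGATGGCGgcggtg
Ndufs7 (chr10:80249467-80249487, plus strand): gaggccAAGATGGCGgcgctg
The motif of ETS factors, which include the regulator GABP, CCGGAAG, was in 4 of 32 subunit promoters (12.5%) and in 9.12% of all promoters, as CTTCCGG where it reads on the other strand. Ndufs3 held it on both strands.
Ndufaf1 (chr2:119662840-119662858, minus strand): ccacaaCCGGAAGcgtggc
Ndufb6 (chr4:40279641-40279659, minus strand): cttgttCTTCCGGtcccct
Ndufb7 (chr8:83566732-83566750, plus strand): gatgacCCGGAAGacactg
Ndufs3 sense (chr2:90904736-90904754, minus strand): gtccgcCCGGAAGaagagt
Ndufs3 antisense (chr2:90904708-90904726, minus strand): tttccaCTTCCGGtccgtg
Ndufs8 (chr19:3912747-3912765, minus strand): ctccgcCTTCCGGttgaac
The palindromic motif of NRF1 was in 1 of 32 subunit promoters, 2 of 6 assembly factor promoters and 0.977% of all, and the motif of the oestrogen-related receptors (ERR), TNAAGGTCA, in 1 subunit promoter and 1.26% of all.
Ndufa11 (chr17:56717696-56717717, plus strand): cactgcGCGCATGCGCgcacgc
Ndufaf4 (chr4:24897964-24897985, plus strand): atgtctGCGCATGCGCctgtgc
Ndufaf5 (chr2:140170656-140170677, plus strand): ccgttgGCGCATGCGCctaata
Ndufb4 (chr16:37654411-37654431, minus strand): tgagccTGAAGGTCAgactcg
A match of letters is a description of the window. In floxed hearts after TAC, 34 of 37 subunits fell (14.5% of all genes), whether or not they held these letters. The 5 with the YY1 letters were at log2 -0.88 for Ndufs6, -0.80 for Ndufa9, -0.67 for Ndufs7, -0.67 for Ndufs4 and -0.43 for Ndufc1, and the 4 with the ETS letters at -0.85 for Ndufs8, -0.61 for Ndufs3, -0.54 for Ndufb7 and -0.41 for Ndufb6. All 9 passed. Ndufa11, with the NRF1 letters, did not pass the test, and Ndufb4, with the ERR letters, was among the 6 accessory subunits with the largest falls.

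In floxed hearts, complex I subunits fell together 5 days after TAC. Of 37 subunits 34 were lower and 0 higher than in floxed sham hearts, where 14.5% of all genes tested were lower and 42.4% passed in either direction. The median subunit was at 61.7% of its sham level, from 43.8% for Ndufs1 to 102.0% for Ndufa4l2. In 35 of 37 subunits both TAC libraries lay below both sham libraries (28.9% of all genes), and in the same 35 the floxed TAC libraries were the 2 lowest of all 8 (17.4%). The median log2 difference was -0.69 against 0.14 for all genes; after RLE scaling, which sets the typical gene of each library equal, it was -0.84 against 0.00, and the same 34 passed. Over all genes, 3655 were higher and 1907 lower as deposited, and 2978 and 2598 after RLE scaling.

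Summed over the 37 subunits, floxed sham libraries held 15997 and 16368 CPM, floxed TAC 10122 and 9285, cKO sham 18530.4 and 17090.1, and cKO TAC 15918 and 13929. The floxed TAC sums were the lowest and the cKO sham sums the highest. These sums are descriptions, since 2 libraries against 2 cannot go below a two-sided p of 0.333 in an exact permutation test. Complex I, with Ndufa4 and Ndufa4l2 counted in it, held 24.7% to 25.9% of the summed subunits of complexes I to V in all 8 libraries. Of 43 subunits of complexes II to V, 38 fell and 1 rose in floxed TAC hearts (median -0.67), where 14.5% of all genes fell and 27.9% rose. In cKO hearts 0 of the 43 passed (2.53% of all genes), and 35 were higher in cKO TAC than in floxed TAC (8.39%). The 1 that rose was Cox6a1 (0.55), the form of this cytochrome oxidase subunit found outside muscle.

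Many markers of macrophages and fibroblasts moved with these groups. Of 6 endothelial markers 0 passed in any comparison. Of 5 smooth muscle and pericyte markers 2 rose and 1 fell in floxed hearts, and 1 rose in cKO hearts. In cKO TAC against floxed TAC, 1 of these 5 was lower. The 10 macrophage markers summed to 390.2 to 391 CPM in floxed sham, 2014 to 2299 in floxed TAC, 317 to 415 in cKO sham and 701 to 977 in cKO TAC. In floxed hearts 10 of 10 rose, in cKO hearts 8 of 10, and 10 of 10 were lower in cKO TAC than in floxed TAC. Of 8 fibroblast markers 6 rose and 1 fell in floxed hearts, 3 rose in cKO hearts, and 4 were lower and 1 higher in cKO TAC than in floxed TAC. They summed to 3069 to 3129 CPM in floxed sham, 9018 to 11000.1 in floxed TAC, 3003 to 3471 in cKO sham and 3780 to 5270.2 in cKO TAC. The genes of this sum moved unevenly. From floxed sham to floxed TAC, mean CPM went from 186 to 3757 for Col1a1, 203 to 2990 for Col1a2 and 47.9 to 1607 for Postn. It went from 98.0 to 215 for Lum, 9.21 to 16.9 for Tcf21, 53.7 to 67.9 for Pdgfra and 623 to 732 for Dcn. For Gsn it went from 1878 to 625. Over all genes 27.9% rose in floxed hearts, 2.09% rose in cKO hearts and 16.5% were lower in cKO TAC than in floxed TAC. The 12 cardiomyocyte markers summed to 101655 to 112573 CPM in floxed sham and 73058 to 73139 in floxed TAC. They summed to 97234 to 100002 CPM in cKO sham and 92691 to 105854 in cKO TAC. In floxed hearts 7 fell and 2 rose (14.5% and 27.9% of all genes). Against floxed TAC, 8 were higher and 1 lower in cKO TAC (8.39% and 16.5%). These genes also moved unevenly. From floxed sham to floxed TAC, mean CPM went from 12083 to 3157 for Myl2 and 26292 to 9548 for Myh6. It went from 14362.5 to 27327 for Actc1, 1337 to 2543 for Csrp3, 5769 to 5539 for Tnnt2 and 3142 to 3540 for Actn2. Subunits amounted to 14.2% and 16.1% of these summed markers in floxed sham and 13.8% and 12.7% in floxed TAC. They amounted to 19.1% and 17.1% in cKO sham and 15.0% in both cKO TAC libraries. Within the marker sum, Myh6 varied between libraries of a group, with 31525 and 21059 CPM in floxed sham and 8565 and 10531 in floxed TAC. Its levels were 15260 and 19395 CPM in cKO sham and 28600 and 15872 in cKO TAC. The percentages therefore depend on the markers summed. The part of these markers' cell types in the complex I differences was not tested. In bulk tissue fewer cardiomyocytes, less RNA per cardiomyocyte and a change in single genes cannot be told apart.

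**Figure D1:**
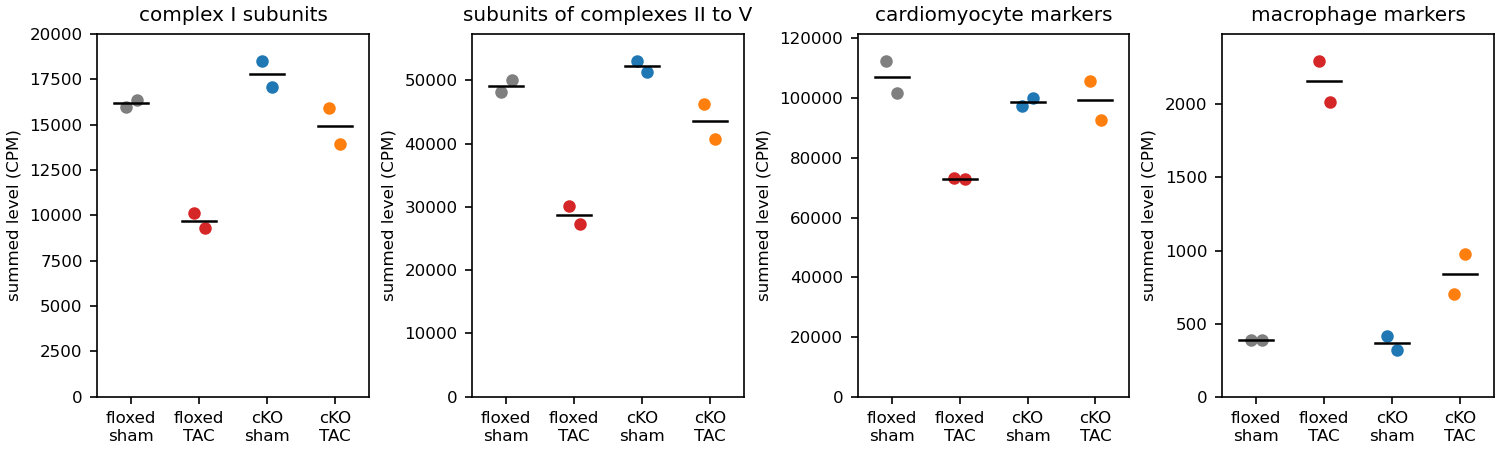
Summed level in CPM (vertical axes, from 0) of 37 complex I subunits, 43 subunits of complexes II to V, 12 cardiomyocyte markers and 10 macrophage markers in each library; points are libraries and bars are the means of 2. In floxed TAC the first 3 sums are at their lowest and the macrophage sum at its highest, 2014 to 2299 CPM.

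The core subunits that receive electrons from NADH included the largest fall. Ndufs1, the large iron-sulfur protein of the matrix arm, stood at 599.9 and 611 CPM in the floxed sham libraries, 269.6 and 260.2 in floxed TAC, 562 and 613 in cKO sham and 524 and 420.2 in cKO TAC. The floxed TAC libraries were below the other 6, at a floxed log2 difference of -1.19 ± 0.12 (adjusted p = 8.95e-05). The gene lies at chr1:63143596-63176833 on mm10 (GENCODE M21). Ndufv1, which binds NADH and the flavin, was at 788 and 775 CPM in the floxed sham libraries, 419 and 401 in floxed TAC, 830.2 and 876 in cKO sham and 657 and 548 in cKO TAC. Here both genotypes were ordered sham above TAC without overlap, and the floxed difference was -0.93 ± 0.12 (adjusted p = 0.00023). Ndufv2, its iron-sulfur partner, was at 709.6 and 792 CPM in the floxed sham libraries, 524 and 456 in floxed TAC, 906 and 757 in cKO sham and 791 and 704 in cKO TAC. It fell less, by 0.62 on the log2 scale, with floxed TAC below every other library and the cKO groups overlapping; without floxed sham 2 its adjusted p was 0.0514.

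The core subunits at the ubiquinone end fell as well. Ndufs7, which carries the last iron-sulfur cluster before ubiquinone, was at 361 and 364 CPM in the floxed sham libraries, 238 and 218 in floxed TAC, 374 and 370.2 in cKO sham and 381 and 320.0 in cKO TAC. Only the floxed TAC libraries were low for Ndufs7; the other 6 lay between 320.0 and 381 CPM. Ndufs8, which carries iron-sulfur clusters of the same chain, was at 315 and 325 CPM in the floxed sham libraries, 180.1 and 175 in floxed TAC, 365 and 317 in cKO sham and 330.4 and 272 in cKO TAC. Ndufs3, a core subunit beside them, was at 390.3 and 391 CPM in the floxed sham libraries, 263 and 247 in floxed TAC, 471 and 432 in cKO sham and 431 and 326 in cKO TAC. The floxed TAC libraries were again the lowest for both, and cKO TAC overlapped floxed sham. The floxed log2 differences were -0.85 ± 0.12 for Ndufs8, -0.67 ± 0.11 for Ndufs7 and -0.61 ± 0.13 for Ndufs3. Every nuclear core subunit tested passed, with a median of -0.85.

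**Figure D2:**
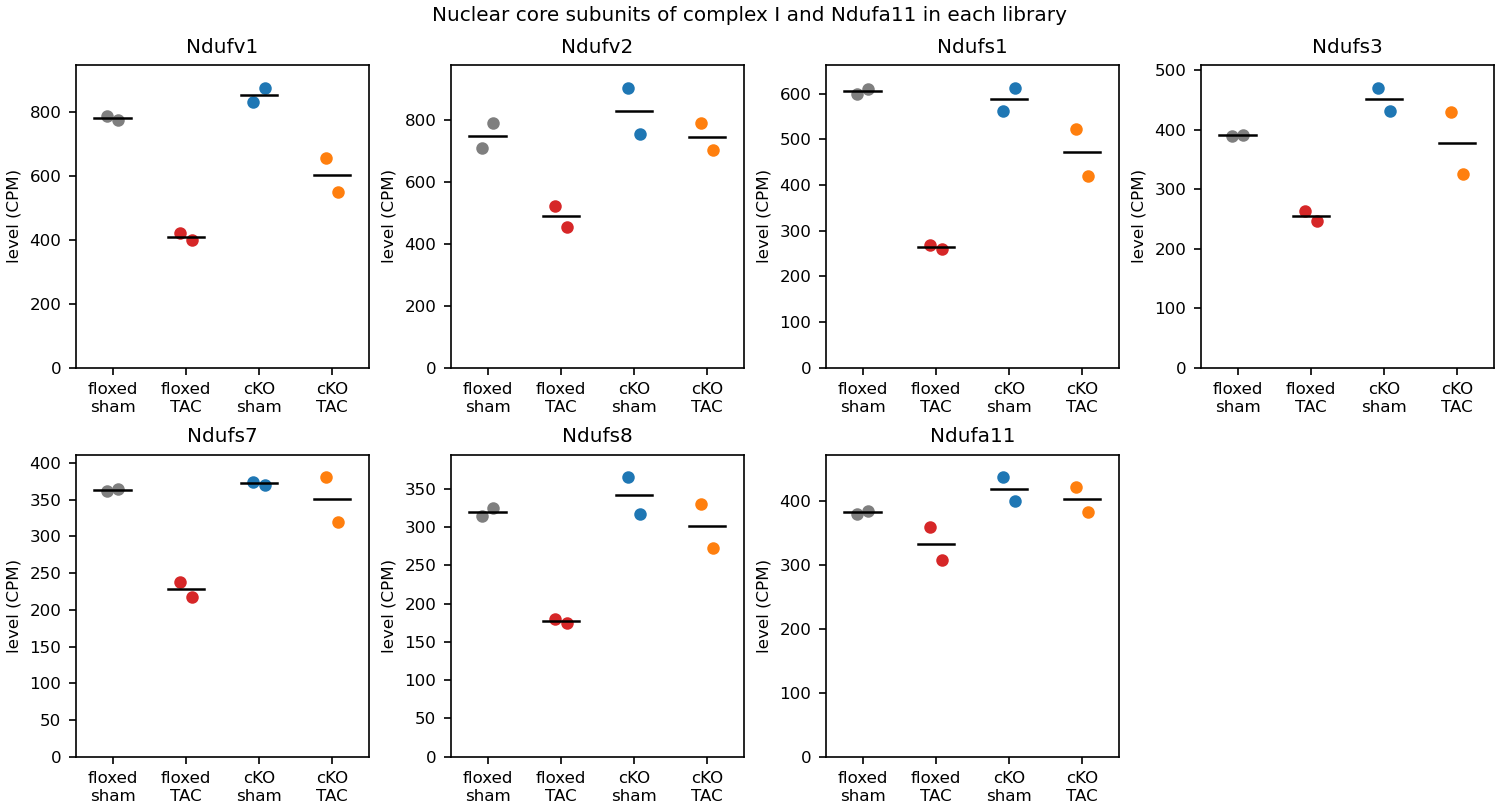
Level in CPM (vertical axis, from 0) of 6 nuclear core subunits and of the accessory subunit Ndufa11 in each of the 8 libraries, by group; points are libraries and bars are the means of 2. For the core subunits the floxed TAC points lie below all others, whereas for Ndufa11 they lie at 359 and 307 CPM, nearer to the other 6 libraries at 380.1 to 437 CPM.

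Accessory subunits fell in both arms of the enzyme. In the matrix arm all 9 passed, with a median log2 difference of -0.80, from -0.88 for the zinc-binding Ndufs6 to -0.44 for the thioredoxin-like Ndufa2. Ndufs6 was at 382 and 367 CPM in the floxed sham libraries, 211 and 196 in floxed TAC, 473 and 415 in cKO sham and 357 and 338 in cKO TAC, so that floxed TAC lay apart from the rest. Ndufs4, whose loss in mice causes a Leigh-like encephalopathy, was at 181 and 177 CPM in the floxed sham libraries, 122 and 103 in floxed TAC, 228 and 189.9 in cKO sham and 192 and 158 in cKO TAC and fell by 0.67 ± 0.14 on the log2 scale (adjusted p = 0.00378). The others of this arm, Ndufv3, Ndufa12, Ndufa5, Ndufa9, Ndufa6 and Ndufa7, lay between -0.85 and -0.57. Ndufa2 lost its call in 3 of the 4 fits that left out a floxed library (28 to 32 subunits passed in these 4 fits).

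Of the 8 accessory subunits in the part of the membrane arm near the matrix arm 6 passed, with a median of -0.81. Ndufa10, which resembles a nucleoside kinase, was at 765 and 689 CPM in the floxed sham libraries, 352 and 414 in floxed TAC, 708 and 723 in cKO sham and 740.0 and 619 in cKO TAC; 1 cKO TAC library lay within the range of the 4 sham libraries and the other below it, and its floxed difference was -0.93 ± 0.13 (adjusted p = 0.000425). Ndufa13, also known as GRIM-19, was at 516 and 554 CPM in the floxed sham libraries, 294 and 272 in floxed TAC, 562 and 559 in cKO sham and 456 and 408 in cKO TAC (floxed log2 -0.92), and the X-linked Ndufa1 at 253 and 267 CPM in the floxed sham libraries, 151 and 128 in floxed TAC, 297 and 279 in cKO sham and 235 and 210.3 in cKO TAC (floxed log2 -0.89). In both, cKO TAC lay between floxed TAC and all 4 sham libraries. Ndufa11, which lies where complex I meets complex III in supercomplexes, and Ndufc2 did not pass. Ndufa11 was at 380.1 and 385 CPM in the floxed sham libraries, 359 and 307 in floxed TAC, 437 and 399.8 in cKO sham and 422 and 383 in cKO TAC (floxed -0.20 ± 0.11, adjusted p = 0.188). Ndufc2 was at 171 and 142 CPM in the floxed sham libraries, 152 and 112 in floxed TAC, 198 and 165 in cKO sham and 168 and 179.9 in cKO TAC (-0.25 ± 0.16, adjusted p = 0.241). Floxed TAC and sham overlapped for Ndufc2 and not for Ndufa11.

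All 10 accessory subunits of the far part of the membrane arm fell, with a median of -0.67. The largest was Ndufb4, at 265 and 262 CPM in the floxed sham libraries, 157 and 134 in floxed TAC, 333 and 276 in cKO sham and 257 and 212 in cKO TAC (floxed -0.85 ± 0.14, adjusted p = 0.000954). The smallest were Ndufb6, at 145 and 146 CPM in the floxed sham libraries, 119 and 101 in floxed TAC, 178 and 147 in cKO sham and 154 and 135 in cKO TAC (floxed -0.41, adjusted p = 0.0325), and Ndufb3, at 158 and 148 CPM in the floxed sham libraries, 115 and 114 in floxed TAC, 177 and 156 in cKO sham and 177 and 160.5 in cKO TAC (floxed -0.41, adjusted p = 0.0133). Both lost their call in fits without a floxed sham library. Ndufab1, the mitochondrial acyl carrier protein that also serves fatty acid and lipoic acid synthesis, was at 283 and 289 CPM in the floxed sham libraries, 193 and 171 in floxed TAC, 319.5 and 289 in cKO sham and 279 and 274 in cKO TAC and fell by 0.65 ± 0.11 on the log2 scale.

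The Ndufa4 pair split. Ndufa4 was at 794 and 794 CPM in the floxed sham libraries, 563 and 518 in floxed TAC, 1045 and 892 in cKO sham and 897 and 708 in cKO TAC and fell in floxed hearts (-0.56 ± 0.14, adjusted p = 0.00965). Ndufa4l2 was at 30.4 and 35.5 CPM in the floxed sham libraries, 34.7 and 32.5 in floxed TAC, 35.2 and 36.2 in cKO sham and 25.7 and 35.3 in cKO TAC, with overlapping groups and a floxed difference of 0.03 ± 0.16 (95% interval -0.34 to 0.40), which was -0.11 after RLE scaling. It was the lowest of the 30 subunits that could be compared per transcript length (those with 1 principal transcript), at 35.3 ± 3.86 CPM per kb in floxed sham (SD, n = 2), where the median subunit was at 459. Ndufb8 was the highest at 1167 ± 80.4, followed by Ndufb9 at 1034 and Ndufb10 at 914, while Ndufs4 was at 105. Of these 30, 23 lay within 2-fold of the median in floxed sham and 25 in floxed TAC.

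Assembly factors stood lower too, but most did not pass the test. In 7 of 7 both floxed TAC libraries lay below both floxed sham libraries, at a median of 77.0% of the sham level (71.0% for Ndufaf6 to 82.8% for Ndufaf5), and 1 of 7 passed. Over all genes 28.9% were ordered in this way and 14.5% fell, so that as deposited the count of calls among the factors is near the background. With RLE scaling, limma-voom, DESeq2 or edgeR 5 of 7 passed, where 2477 to 2641 of the 13120 genes tested fell. The factor that passed as deposited was Ndufaf7, a protein arginine methyltransferase, at 27.8 and 27.1 CPM in the floxed sham libraries, 22.8 and 17.6 in floxed TAC, 28.4 and 26.5 in cKO sham and 28.5 and 27.1 in cKO TAC (-0.44 ± 0.15, adjusted p = 0.0441). Ndufaf1, which acts in membrane arm assembly with Ecsit, was at 42.9 and 44.6 CPM in the floxed sham libraries, 33.3 and 31.0 in floxed TAC, 47.5 and 33.8 in cKO sham and 46.0 and 45.2 in cKO TAC (-0.43, adjusted p = 0.052). The spread between the cKO sham libraries was wide for Ndufaf1, with 1 of them near floxed TAC. Ndufaf2, a paralogue of Ndufa12 that holds its place in the growing enzyme, was at 19.3 and 16.4 CPM in the floxed sham libraries, 13.7 and 13.8 in floxed TAC, 21.9 and 14.7 in cKO sham and 20.0 and 19.0 in cKO TAC (-0.35, adjusted p = 0.181).

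Ndufaf3 and Ndufaf4 work together on the early part that binds ubiquinone. Ndufaf3 was at 35.5 and 37.2 CPM in the floxed sham libraries, 29.5 and 29.4 in floxed TAC, 46.4 and 40.7 in cKO sham and 35.0 and 32.6 in cKO TAC (-0.29, adjusted p = 0.0889). Ndufaf4 was at 53.6 and 52.9 CPM in the floxed sham libraries, 44.1 and 40.0 in floxed TAC, 69.4 and 56.6 in cKO sham and 49.3 and 56.5 in cKO TAC (-0.34, adjusted p = 0.0739). In this pair cKO TAC also lay below cKO sham without overlap. Ndufaf5, which hydroxylates an arginine of Ndufs7, was at 23.8 and 21.1 CPM in the floxed sham libraries, 19.8 and 17.3 in floxed TAC, 27.0 and 23.8 in cKO sham and 24.7 and 23.9 in cKO TAC (-0.26, adjusted p = 0.191). Ndufaf6, needed for early assembly steps, was at 16.2 and 15.2 CPM in the floxed sham libraries, 12.1 and 10.2 in floxed TAC, 17.5 and 12.5 in cKO sham and 15.1 and 13.9 in cKO TAC (-0.46, adjusted p = 0.0791). The count rested on the method: 5 of 7 passed by limma-voom, DESeq2 and edgeR on recovered reads and after RLE scaling, and 0 of 7 without floxed sham 1, floxed sham 2 or floxed TAC 2, or without the 3 libraries with atrial transcripts.

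**Figure D3:**
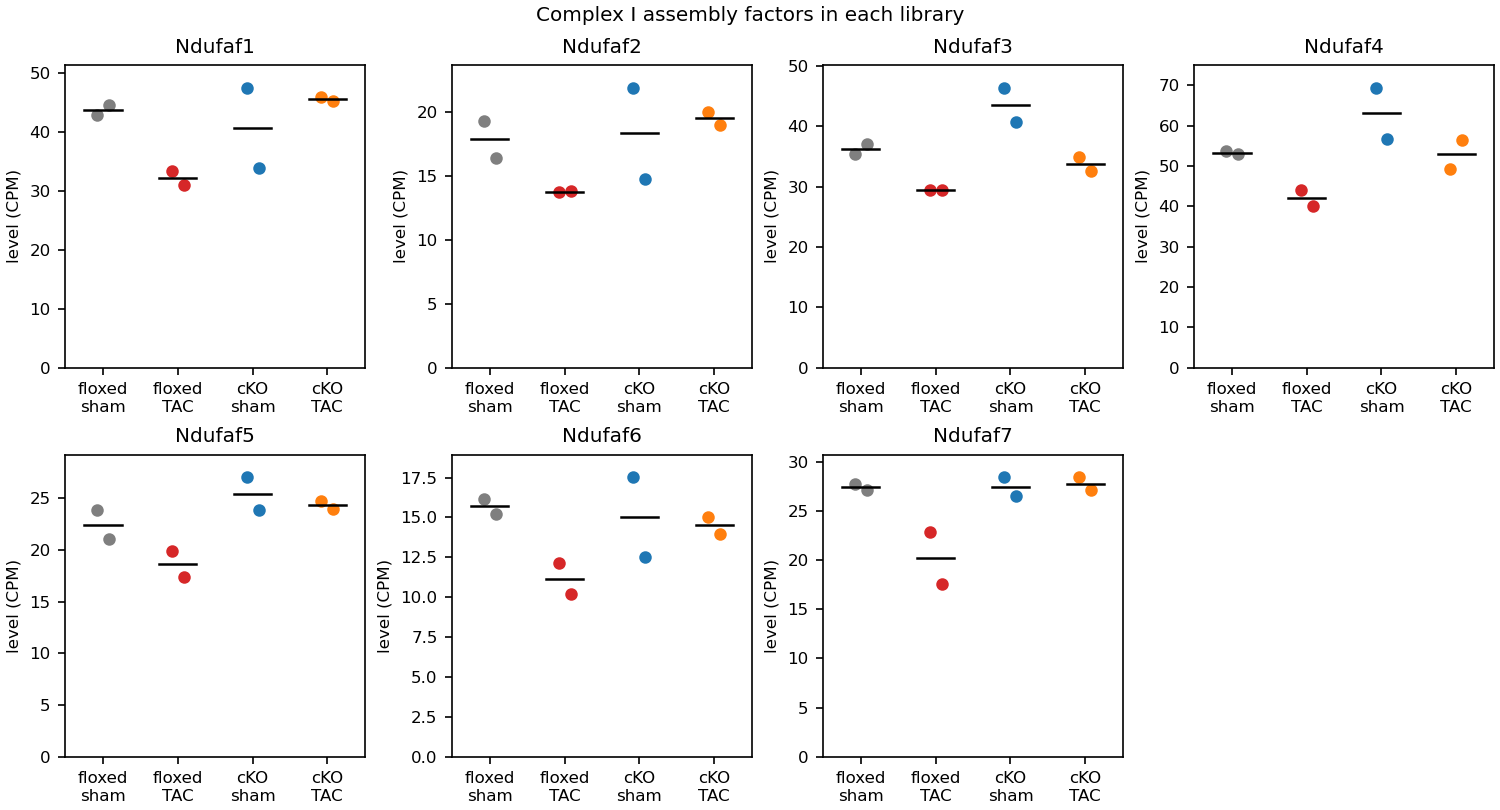
Level in CPM (vertical axis, from 0) of the 7 assembly factors in each library, by group; points are libraries and bars are the means of 2. Floxed TAC is the lowest group for each factor, and the cKO sham libraries of Ndufaf1, Ndufaf2 and Ndufaf6 lie far apart.

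Among 10 further complex I assembly factors with other names, 3 fell and 0 rose in floxed hearts, where 14.5% of all genes fell and 27.9% rose. They were Ecsit, the partner of Ndufaf1 (-0.53, adjusted p = 0.00378), Tmem70, known for ATP synthase assembly as well (-0.62), and Foxred1 (-0.41). The gene now called Ndufaf8, listed under an older name outside the symbol rule, did not pass in floxed hearts (-0.33, adjusted p = 0.0832).

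In cKO hearts most subunits stood below their sham level after TAC, and none passed. Of 37 subunits and 7 assembly factors, 0 and 0 passed limma's test, where 2.53% of all genes did (0.442% lower). At an unadjusted p under 0.05 there were 15 of 37 subunits and 1 of 7 factors, against 16.3% of all genes. Subunits stood at a median of 84.0% of cKO sham, from 70.6% for Ndufv1 to 101.5% for Ndufb3. The median log2 difference was -0.25 against 0.02 for all genes, and 36 of 37 were negative (47.4% of all genes). In 22 of 37 both TAC libraries lay below both sham libraries (19.9%), and so did 2 of 7 assembly factors, whose median was 96.4% of sham.

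Nearest to the threshold were Ndufv1, at 830.2 and 876 CPM in cKO sham and 657 and 548 in cKO TAC (-0.51 ± 0.12, adjusted p = 0.0546), and Ndufa3, a small membrane arm subunit, at 479 and 396 and 335 and 295 CPM (-0.47 ± 0.12, adjusted p = 0.0838). Neither overlapped between the groups. DESeq2 called these 2, and edgeR and limma-voom called 0 (12 and 13 subunits at an unadjusted p under 0.05). Without cKO TAC 1, limma called 1, Ndufv1 (-0.64, adjusted p = 0.0178). At the other end, Ndufs7 (-0.09 ± 0.11), Ndufa10 (-0.08 ± 0.13), Ndufc2 (-0.06 ± 0.16), Ndufa11 (-0.06 ± 0.11) and Ndufb3 (0.02 ± 0.11) lay within 1 standard error of 0, with overlapping groups. The sign of Ndufs7 turned without cKO TAC 2 (0.03), and that of Ndufb3 without cKO TAC 1 (-0.05), without cKO sham 2 (-0.07) and after RLE scaling (-0.0019). For Ndufs7 the 95% interval was -0.34 to 0.16, and for Ndufv1 it was -0.77 to -0.25. The test of the difference between the genotypes' responses is given further on. By arm, the cKO medians were -0.32 for the NADH end of the core, -0.22 for its ubiquinone end, -0.25 for matrix arm accessory subunits and -0.21 and -0.24 for the near and far membrane arm.

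**Figure D4:**
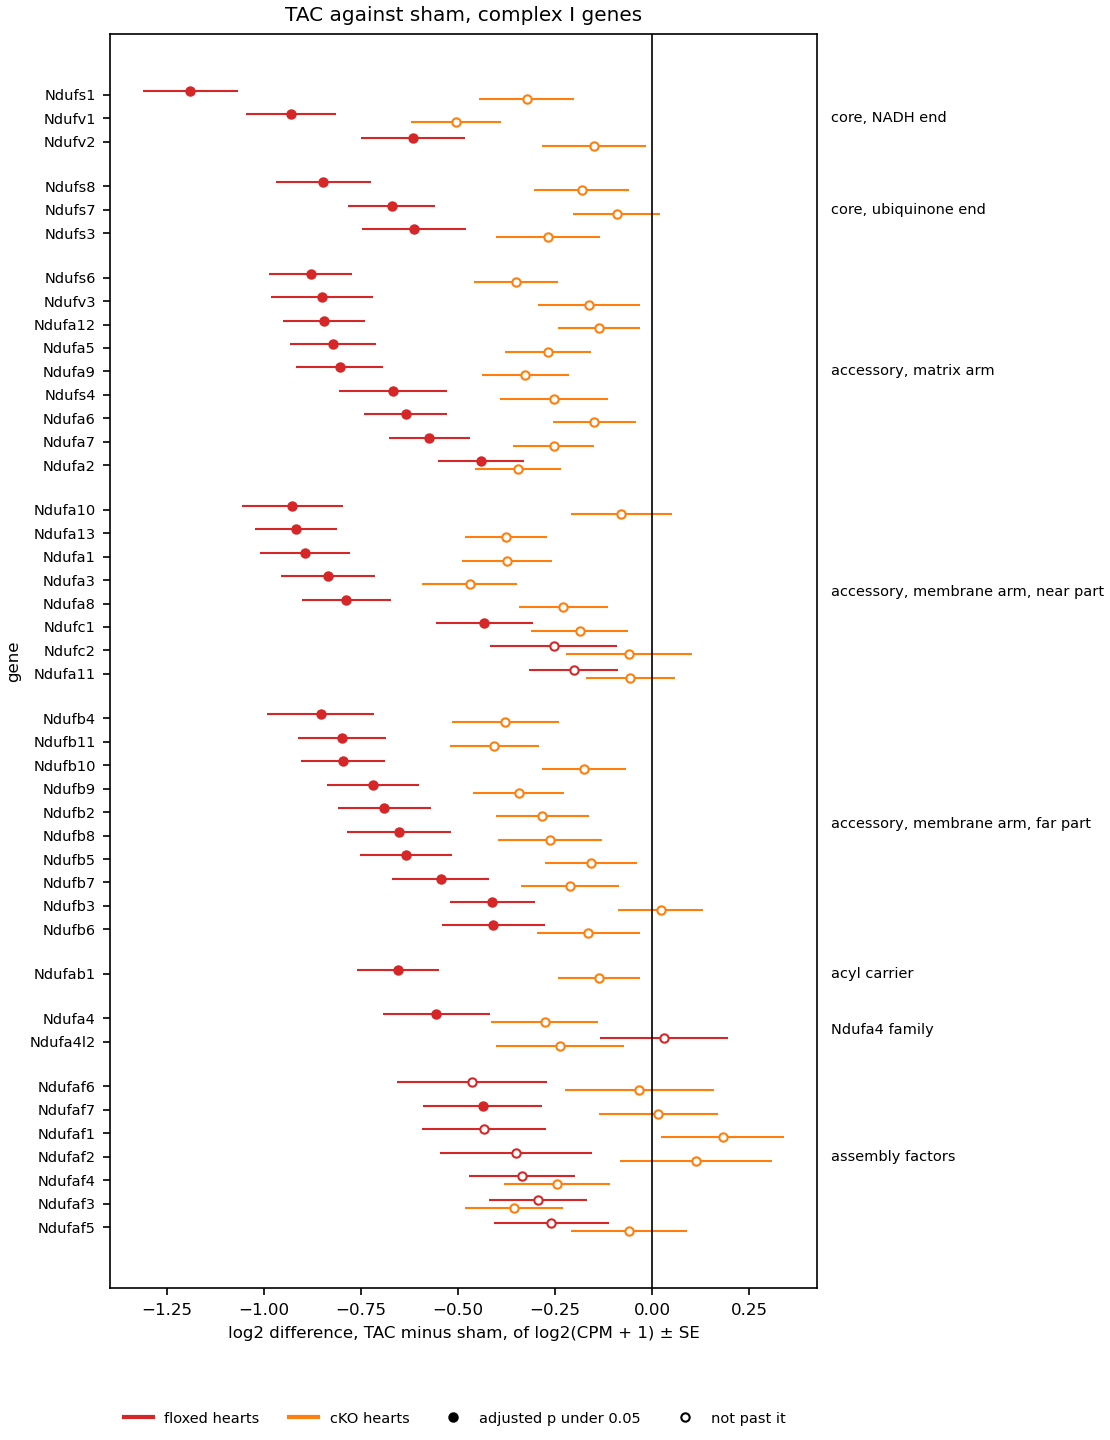
Log2 difference, TAC minus sham, of log2(CPM + 1) with its standard error (horizontal axis) for 43 members (rows, by role) in floxed and cKO hearts; filled points passed the adjusted p of 0.05. Most floxed subunit points and 1 of 7 assembly factor points are filled, and none of the cKO points are.

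Between the genotypes without pressure load, 0 of 37 subunits and 0 of 7 assembly factors passed limma's test, where 0.0534% of all genes did. At an unadjusted p under 0.05 there were 3 subunits and 0 factors (7.72% of all genes), and limma-voom, DESeq2 and edgeR called 0. The cKO sham level was at a median of 110.7% of floxed sham over the subunits, and 35 of 37 differences were positive (54.3% of all genes), with a median of 0.14 against 0.02 for all genes. In 24 of 37 subunits both cKO sham libraries lay above both floxed sham libraries (24.9%). The library cKO sham 1 was the highest of all 8 in 27 of 37 subunits (12.2%) and in 6 of 7 assembly factors. Ndufa4 (0.28 ± 0.14, adjusted p = 0.676) and Ndufc1 (0.28 ± 0.12, adjusted p = 0.644) had the largest differences. Ndufs1 had the lowest, -0.04 ± 0.12, which was 0.02 without cKO sham 1.

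Under pressure load the genotypes differed. Of 37 subunits 33 were higher and 0 lower in cKO TAC than in floxed TAC hearts, where 8.39% of all genes were higher and 24.9% passed in either direction. In 36 of 37 subunits both cKO TAC libraries lay above both floxed TAC libraries (23.6%), Ndufa4l2 being the exception. The median subunit in cKO TAC was at 152.5% of floxed TAC, from 90.6% for Ndufa4l2 to 178.2% for Ndufs1, and the median log2 difference was 0.61 against -0.10 for all genes. Over all genes, 1101 were higher and 2162 lower as deposited, and 1421 and 1751 after RLE scaling.

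Among the smallest adjusted p were those of Ndufs6 (0.77 ± 0.11, adjusted p = 0.00188), Ndufa12, the subunit that replaces Ndufaf2 late in assembly (0.75 ± 0.11, adjusted p = 0.00196) and Ndufs1 (0.82 ± 0.12, adjusted p = 0.00239). Ndufa12 was at 602 and 645 CPM in the floxed sham libraries, 367 and 327 in floxed TAC, 642 and 644 in cKO sham and 595 and 574 in cKO TAC, so that cKO TAC lay between the floxed groups. Others with a small adjusted p were Ndufa5 (0.71), Ndufa10 (0.83), Ndufa9, which binds a nucleotide near the ubiquinone site (0.71), and Ndufs8 (0.75). All 7 core subunits passed, as did 9 of 9 matrix arm, 6 of 8 near and 9 of 10 far membrane arm accessory subunits, Ndufab1 and Ndufa4. The 4 that did not were Ndufb6 (0.39, adjusted p = 0.0568), Ndufc2 (0.41), Ndufa11 (0.27) and Ndufa4l2 (-0.15).

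Of the assembly factors 1 of 7 was higher, Ndufaf1 (0.49 ± 0.16, adjusted p = 0.049), and in 7 of 7 both cKO TAC libraries lay above both floxed TAC libraries. Over all genes 8.39% were higher and 23.6% ordered in this way, so that as deposited 1 call among 7 is near the background. With RLE scaling or DESeq2 2 of 7 were higher, with edgeR 3 and with limma-voom 5. In these settings 1421 to 1521 of the 13120 genes tested were higher. Among the 10 assembly factors with other names 4 were higher and 0 lower: Ecsit (0.35), Tmem70 (0.47), Foxred1 (0.54) and Nubpl, which delivers iron-sulfur clusters (0.56). The subunit count was 20 without floxed TAC 2 and 21 without cKO TAC 1, and the Ndufaf1 call was lost when any one of the 6 libraries other than cKO sham was left out. Calls over all genes also went down without floxed TAC 2 and without cKO TAC 1. The subunits' median log2 difference, 0.61 with all libraries, was 0.52 and 0.51 in those fits. In 35 of 37 subunits floxed TAC 2 was below floxed TAC 1 (51.5% of all genes), and in 35 of 37 cKO TAC 2 was below cKO TAC 1 (37.0%), with median log2 differences of -0.12 and -0.16 between the libraries of a group.

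**Figure D5:**
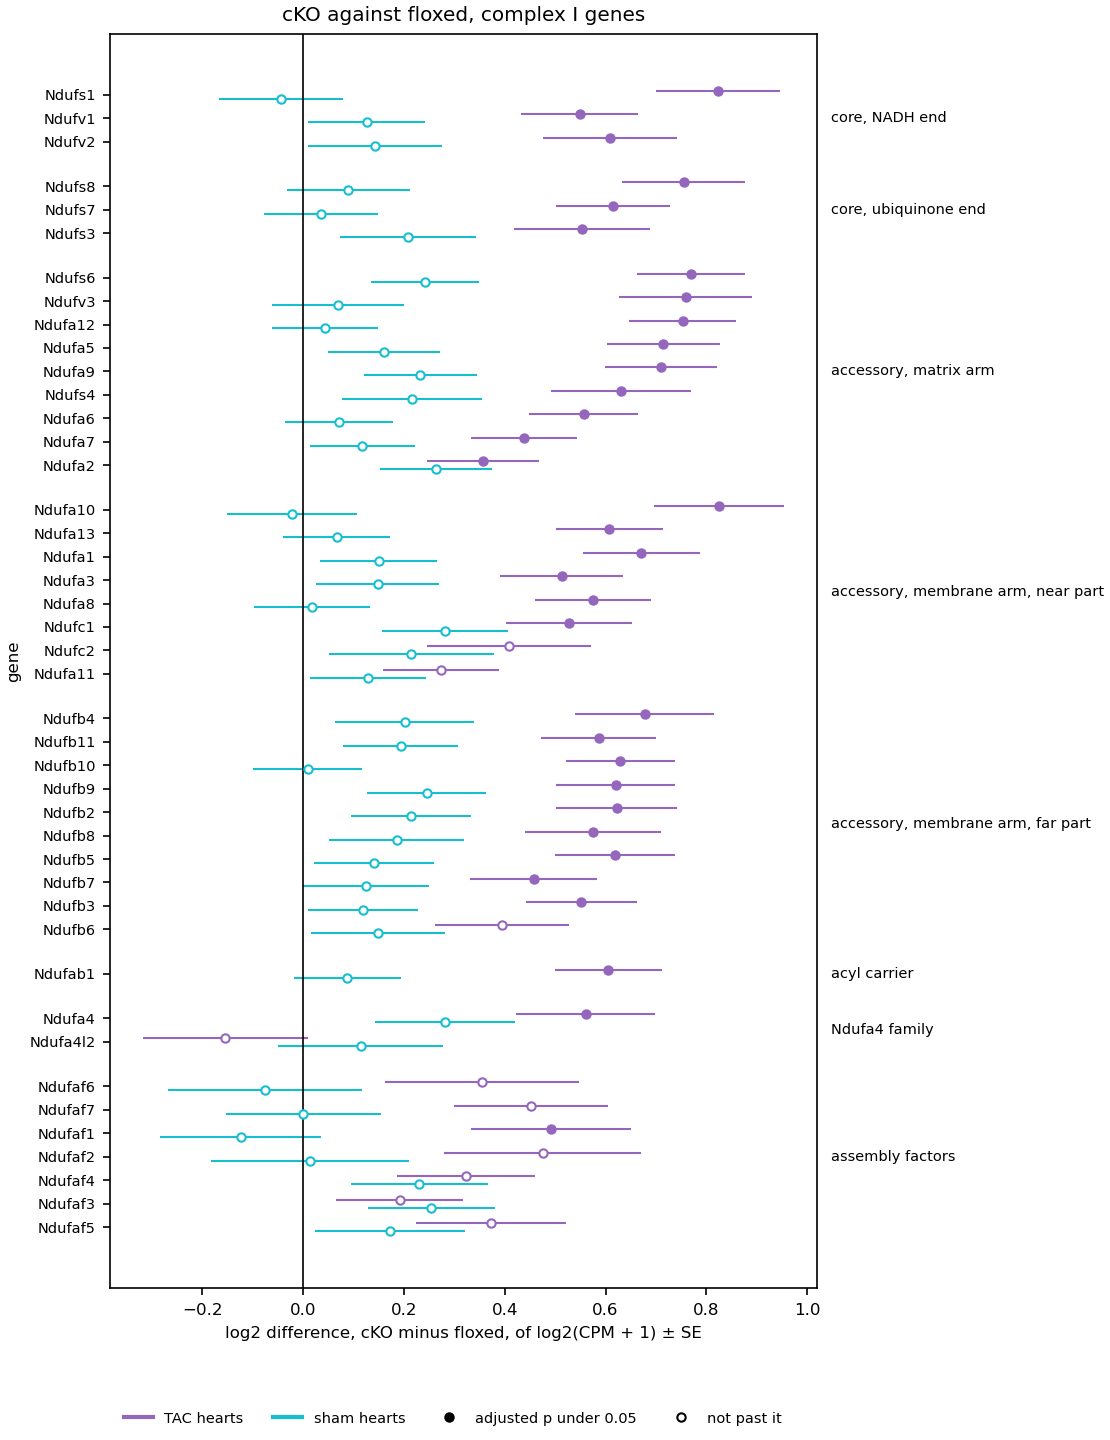
Log2 difference, cKO minus floxed, of log2(CPM + 1) with its standard error (horizontal axis) for 43 members (rows, by role) in TAC and in sham hearts; filled points passed the adjusted p of 0.05. In TAC hearts most subunit points are filled and lie above 0, and none of the sham points are filled.

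The cKO TAC libraries did not lie wholly at the sham level. In 14 of 37 subunits, Ndufs1, Ndufv1 and Ndufs6 among them, both lay above floxed TAC and below floxed sham (10.5% of all genes). Library cKO TAC 1 was at or above the lower floxed sham library in 22 of 37 subunits, and cKO TAC 2 in 5. How often all genes were ordered in this way was not counted, so these counts are descriptions only. Among assembly factors 2 of 7, Ndufaf3 and Ndufaf6, had cKO TAC between the floxed groups.

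The test of the difference itself, the cKO log2 response to TAC less the floxed one, passed for 13 of 37 subunits and 0 of 7 assembly factors, all 13 positive, where 4.93% of all genes were positive and passed and 14.1% passed in either direction. Among the 13 were the core subunits Ndufs1 (0.87 ± 0.17, adjusted p = 0.0147), Ndufs8 and Ndufs7, the matrix arm subunits Ndufa12 (0.71 ± 0.15, adjusted p = 0.0171), Ndufv3, Ndufa5 and Ndufs6, the membrane arm subunits Ndufa10 (0.85 ± 0.18, adjusted p = 0.0182), Ndufb10, Ndufa13 and Ndufa8, and Ndufab1. Those without values here lay between 0.52 and 0.69. Ndufv1 did not pass (0.42 ± 0.16, adjusted p = 0.11). The median over the subunits was 0.47 against -0.13 for all genes, and 36 of 37 were positive (40.1% of all genes), Ndufa4l2 being the exception at -0.27. Over all genes, 647 were positive and 1204 negative as deposited, and 843 and 916 after RLE scaling.

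The number of calls moved with single libraries, more than the size of the difference did. The count was 0 without floxed sham 1 or floxed sham 2, 2 when floxed TAC 2 was omitted, 3 when floxed TAC 1, cKO sham 2 or cKO TAC 1 was, 4 without cKO sham 1, and 20 without cKO TAC 2. Without the 3 libraries with atrial transcripts it was 2. The subunits' median stayed between 0.34 and 0.55 in the fits without 1 library, and was 0.47 without floxed sham 1 and 0.45 without floxed sham 2. Calls over all genes went down as well, to 112 positive and 141 negative without floxed sham 1 and to 207 and 401 without floxed sham 2. On recovered reads DESeq2 called 18, limma-voom 15 and edgeR 13.

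Regulators of respiratory genes were measured beside their known targets. Of 13, 8 fell and 2 rose in floxed TAC hearts, where 14.5% of all genes fell and 27.9% rose. In cKO hearts 0 passed (2.53% of all genes), and 7 were higher and 1 lower in cKO TAC than in floxed TAC (8.39% and 16.5%). Perm1, a muscle regulator of mitochondrial genes listed under its older name 2310042D19Rik, was at 437 and 466 CPM in the floxed sham libraries, 213 and 187 in floxed TAC, 397 and 374 in cKO sham and 377 and 325 in cKO TAC (floxed -1.17 ± 0.12, adjusted p = 7.56e-05). The receptor gene Esrrb was at 54.6 and 56.1 CPM in the floxed sham libraries, 27.8 and 28.4 in floxed TAC, 37.3 and 44.7 in cKO sham and 42.0 and 45.9 in cKO TAC (floxed -0.96). Esrra, the related receptor best known for respiratory chain genes, was at 167 and 172 CPM in the floxed sham libraries, 112 and 104 in floxed TAC, 150.2 and 156 in cKO sham and 149.8 and 128 in cKO TAC (floxed -0.64). In all 3 the floxed TAC libraries were the lowest of the 8. The 2 that rose, a smaller share than among all genes, were named after their values were seen: Pprc1, a coactivator related to PGC-1 (0.94), and Nrf1 (0.52), whose letters were searched above; Yy1 did not pass (0.16).

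Genes that supply complex I with its cofactors and its mitochondrially encoded partners were measured as well. Of 11 iron-sulfur cluster assembly genes 4 fell in floxed hearts (14.5% of all genes), among them the cysteine desulfurase Nfs1 (-0.57), Isca1 (-0.60) and Bola3 (-0.57), and 4 were higher in cKO TAC than in floxed TAC (8.39%). Of 7 genes of mitochondrial transcription and mRNA stability 3 fell in floxed hearts, Lrpprc, which stabilises mitochondrial mRNAs (-0.75), Tfb2m (-0.75) and the mitochondrial RNA polymerase Polrmt (-0.69). None of these 18 passed in cKO hearts, where 2.53% of all genes did.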

How the data were processed

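Left ventricular RNA of the 8 libraries was sequenced from a stranded mRNA kit, per the labels' protocols. Per the submitters' processing notes, Bowtie2 2.2.6, HTSeq and DESeq2 were used with mm10; no source used here gives the parameters. The authors deposited a table of CPM values. Dividing by the value of 1 read gave whole numbers within 0.02, and these recovered reads served the count tests. Library totals were 10315902 to 21871570 reads, and 2 libraries per group limit the precision.

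Groups were taken from the labels. The 13120 genes reaching 1 CPM in 2 or more libraries were fitted together as log2(CPM + 1) with limma 3.58.1 (trend) in R 4.3.3, 1 coefficient per group over all 8 libraries, with Benjamini-Hochberg adjustment over all of them. Of these fits, the limma contrast of floxed TAC with floxed sham was tested on simulated data, and its outcome is not given here. Alternatives were a pseudocount of 0.5, no filter, RLE size factors, limma-voom, edgeR 4.0.16 quasi-likelihood and DESeq2 1.42.0 on recovered reads, the replicate block, the compared groups alone, and fits without single libraries or without 3 libraries with atrial transcripts.

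Named were the core subunits (1 member is not reported here by name or in the figures), all assembly factors, Ndufa4, Ndufa4l2, Ndufab1 and Ndufs4. Also named were the 6 other subunits with the largest and the 4 with the smallest floxed TAC difference, up to 8 called members with the smallest adjusted p in each other comparison, and up to 3 genes of each other list. Members and lists were chosen with earlier results of these data known.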

Additional observations from a re-analysis of the deposited data

Results flagged for a closer look

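For the subunits named here the response to TAC differed between the genotypes by the limma test of the difference itself, cKO response minus floxed response, at an adjusted p under 0.05. The log2 differences were 0.87 for Ndufs1, 0.85 for Ndufa10, 0.71 for Ndufa12, 0.69 for Ndufv3, 0.66 for Ndufs8, 0.62 for Ndufb10 and 0.58 for Ndufs7. They were 0.56 for Ndufa8, 0.55 for Ndufa5, 0.54 for Ndufa13, 0.53 for Ndufs6 and 0.52 for Ndufab1. Each rests on 2 libraries per group, and leaving out floxed sham 1 or floxed sham 2 left 0 of them past the threshold, while the median over all subunits, 0.47, was 0.47 and 0.45 in those fits.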

How the results depend on the processing

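The 34 floxed subunit calls held under every alternative that kept all libraries and were 28 to 34 without single libraries. No member changed sign in a comparison in which it was called. The floxed count of assembly factors, 1, was 5 with RLE scaling, limma-voom, DESeq2 or edgeR, 4 with the compared groups alone, 0 without the libraries with atrial transcripts and 0 to 2 without single libraries. The count of cKO subunits, 0, was 2 with DESeq2 and 0 to 1 without single libraries. In cKO against floxed TAC hearts, subunit counts were 20 to 34 without single libraries, and the assembly factor count, 1, was 2 with RLE scaling or DESeq2, 5 with limma-voom, 3 with edgeR, 0 without the atrial libraries and 0 to 1 without single libraries. For the difference between responses, subunits were 0 to 20 without single libraries and 2 without the atrial libraries, and assembly factors 0 to 1. With the compared groups alone, 28 subunits were higher in cKO TAC than in floxed TAC hearts, against 33 in the fit of all groups. After RLE scaling the summed subunits were 16805.9 CPM in floxed sham and 9095.84 in floxed TAC. Signs turned only for members that had not passed in the comparison concerned. Ndufa4l2 in floxed hearts was -0.11 with RLE scaling, -0.11 with limma-voom, -0.12 with DESeq2, -0.11 with edgeR and -0.0777 to 0.139 without single libraries, and in TAC hearts -0.374 to 0.0672 without single libraries. In cKO hearts Ndufaf1 was -0.0468 without the atrial libraries and -0.0588 to 0.421 without single libraries, Ndufb3 -0.0019 with RLE scaling, -0.000498 with DESeq2 and -0.0700 to 0.114 without single libraries, and Ndufs7 0.0277 without the atrial libraries and -0.216 to 0.0342 without single libraries. Ndufs1 in sham hearts was -0.107 to 0.0195 without single libraries. The cause was not tested. Samples with the same replicate number share only that number (correlations of deviations -0.105 to 0.081). With the replicate block, subunit counts were 34 in floxed TAC, 34 in cKO against floxed TAC hearts and 12 for the difference between responses, and the floxed assembly factor count was 2.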
